A study of Mus musculus with 12 samples.

Results

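The genes described here are 10 general markers of macrophages and other myeloid cells, read across mouse livers of 2 genotypes and 2 diets. They are Emr1 (the older symbol of Adgre1, which encodes F4/80), Csf1r, Mertk, Fcgr1, Cd14, Tyrobp, Aif1, Mpeg1, Cybb and Lyz2. They were taken by symbol from a count table of 43346 annotated genes. Each symbol matched a single row, and all 10 were among the 16283 genes with enough counts to be tested. RNA from whole liver was sequenced in 12 libraries, 3 for each combination of genotype and diet.

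Both genotypes carried the floxed allele S1pr1loxp/loxp, in which loxP sites flank S1pr1, a gene for a sphingosine 1-phosphate receptor. The knockout mice (KO, S1pr1loxp/loxp;Lyz2-Cre/0) also carried Cre recombinase driven from the Lyz2 locus, which is active in macrophages, monocytes and neutrophils. Their S1pr1loxp/loxp littermates had no Cre and are called wild type (WT), as in the labels. From 12 weeks of age the mice were kept for 24 weeks on standard rodent chow or on FFC, a feed with added fat, cholesterol and fructose. The replicate numbers were 2, 3 and 4 in both WT groups, 1, 2 and 3 in KO chow and 1, 4 and 7 in KO FFC. The labels do not say whether separate mice gave the 3 libraries of a group. The p-values therefore measure the spread between libraries, and part of that spread may be technical. In whole tissue, more cells of a type and more RNA per cell cannot be told apart.

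Macrophages are tissue phagocytes that engulf debris, dying cells and microbes. In the liver they comprise resident Kupffer cells of the sinusoids and cells that arise from blood monocytes, and diets that cause fatty liver are known to be accompanied by the recruitment of the latter. The genes fall into groups by role. Emr1 encodes an adhesion G protein-coupled receptor used as the classical mouse macrophage marker, and Csf1r encodes the receptor for CSF1 and IL-34, on which macrophages depend for survival. Mertk encodes a receptor tyrosine kinase for the uptake of apoptotic cells, Fcgr1 the high-affinity Fc receptor for IgG, and Cd14 the co-receptor that hands lipopolysaccharide to TLR4. Tyrobp encodes DAP12, an adaptor that carries an ITAM signalling motif, and Aif1 encodes IBA1, an actin-binding protein. Mpeg1 encodes perforin-2, a pore-forming protein of phagocytes, Cybb the catalytic subunit of the phagocyte NADPH oxidase, and Lyz2 the lysozyme of myeloid cells.

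Promoter sequences were looked up in RefSeq (assembly GRCm38.p6) because most of these genes moved together with diet. Windows of 6 of the 10 genes were searched, each holding 250 bases before and 50 bases after the annotated start. Emr1 and Tyrobp matched no entry, and the promoters of Csf1r and Cd14 were not searched. Shown are the promoters of Lyz2, the gene among the 10 that was lower in KO than in WT FFC livers without overlap, of its close paralog and neighbour Lyz1, of Fcgr1, which holds both motifs searched, and of Cybb, which had the largest diet change in KO livers. Capitals mark matches to GGAAGT, a core of ETS family sites, or to GAGGAA, a core of sites for PU.1, the myeloid ETS factor, searched on both strands. All matches lay on the strand opposite to the one printed, so they appear as ACTTCC and TTCCTC.
Lyz2, chr10:117282223-117282522, minus strand: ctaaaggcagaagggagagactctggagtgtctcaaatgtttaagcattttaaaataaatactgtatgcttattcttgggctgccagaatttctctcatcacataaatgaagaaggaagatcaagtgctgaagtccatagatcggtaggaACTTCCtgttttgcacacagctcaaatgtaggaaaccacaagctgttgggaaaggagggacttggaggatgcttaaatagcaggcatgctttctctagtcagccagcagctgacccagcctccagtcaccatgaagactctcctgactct
Lyz1, chr10:117292819-117293118, minus strand: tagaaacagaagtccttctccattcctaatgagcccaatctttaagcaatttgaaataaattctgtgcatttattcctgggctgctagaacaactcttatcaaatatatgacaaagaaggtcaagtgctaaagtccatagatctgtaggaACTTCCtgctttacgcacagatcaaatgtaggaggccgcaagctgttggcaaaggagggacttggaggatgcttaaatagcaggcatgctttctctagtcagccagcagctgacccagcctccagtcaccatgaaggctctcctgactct
Fcgr1, chr3:96293920-96294219, minus strand: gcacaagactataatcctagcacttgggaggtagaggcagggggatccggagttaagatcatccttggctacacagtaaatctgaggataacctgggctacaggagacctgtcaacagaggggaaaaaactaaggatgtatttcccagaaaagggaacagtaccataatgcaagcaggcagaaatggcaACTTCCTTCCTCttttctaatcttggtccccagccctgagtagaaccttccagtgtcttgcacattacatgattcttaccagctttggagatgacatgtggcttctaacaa
Cybb, chrX:9469275-9469574, minus strand: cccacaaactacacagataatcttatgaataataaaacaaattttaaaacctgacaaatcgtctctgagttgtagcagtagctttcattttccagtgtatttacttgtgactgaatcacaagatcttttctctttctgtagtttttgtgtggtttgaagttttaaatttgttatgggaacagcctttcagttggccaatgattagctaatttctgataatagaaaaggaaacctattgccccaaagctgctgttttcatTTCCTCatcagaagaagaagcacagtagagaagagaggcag
Lyz2 and Lyz1 held GGAAGT at the same place, with the first printed base of the match 100 bases before the start, and their windows were 82.45% identical. In Fcgr1 the 2 motifs stood side by side, 61 and 55 bases before the start. Cybb held GAGGAA 9 bases after the RefSeq start, which lies inside the span of the Ensembl gene, and Aif1 held it 7 bases before its start. Neither motif was in the windows of Mertk and Mpeg1. A motif was thus present in 4 of the 6 windows. Of the 32851 promoter windows of the same length that were searched, 43.4% held either one (23.8% GGAAGT, 28.3% GAGGAA).

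Libraries held 18873092 to 31154930 counts, with the fewest in the chow groups, and 16008 to 21308 genes had at least 1 count. Levels are given in CPM (the counts-per-million unit), a gene's count relative to its library total after scaling between libraries by the trimmed mean of M-values. S1pr1 itself ranged from 27.3 to 44.4 CPM over the 12 libraries. It did not differ between genotypes by the test (log2 difference 0.11, SE 0.20, edgeR adjusted p = 1.00 on FFC, and 0.02, SE 0.20, edgeR adjusted p = 0.971 on chow), and endothelial cells, a known site of S1pr1 expression, are part of whole liver. KO chow replicate 1 stood apart from all others, at -97.2 on the second principal component against -10.1 to 40.2 in the other 11 libraries, and albumin took 7.31% of its counts against 10.1% to 14.3% in the other chow libraries. Where leaving it out moved a call or a count by more than 1.5 times, the value without it is given.

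On the FFC diet, livers of both genotypes had higher levels of most of these genes. In WT livers 9 of the 10 rose and in KO livers 8 of the 10 rose, by 1.81-fold to 3.61-fold and by 1.59-fold to 4.55-fold, and none fell in either. Emr1, Csf1r, Cd14, Mertk, Tyrobp, Mpeg1, Lyz2 and Cybb rose in both genotypes. Fcgr1 passed the test in WT only, and Aif1 passed it in neither. A call means an edgeR quasi-likelihood test with an adjusted p (Benjamini-Hochberg, 16283 genes) under 0.05. Over all genes tested, 8.76% were called higher and 8.03% lower on FFC in WT livers, and 13.7% higher and 12.8% lower in KO livers. The median log2 change of the 10 genes was 1.31 in WT and 1.42 in KO livers, beside 0.04 and 0.09 over all genes. Levels of the chow and FFC libraries did not overlap, with FFC above, for 9 of the 10 genes in WT (25.0% of all genes) and for 7 in KO livers (23.4% of all genes).

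**Figure D1:**
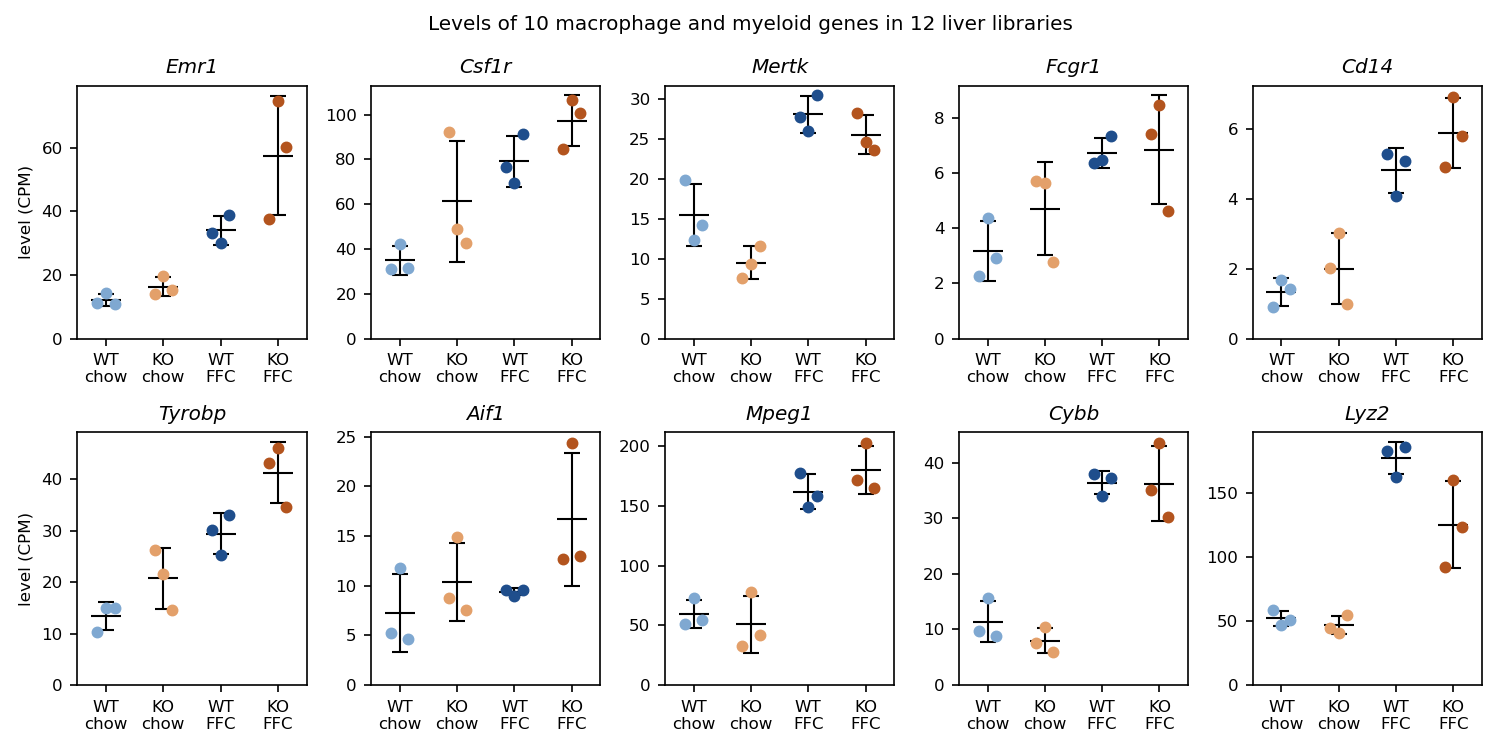
Level of each of the 10 genes in the 12 liver libraries, in CPM (linear axis from 0, a scale of its own in each panel). Points are libraries, and the horizontal line and bar are the mean and SD of the 3 libraries of a group. FFC libraries lie above chow libraries for most genes, and the KO FFC libraries lie below the WT FFC libraries for Lyz2 alone without overlap.

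The macrophage receptor gene Emr1 (ENSMUSG00000004730, chromosome 17, 57358686 to 57483529 in mm10) stood at 11.2, 14.2 and 11.0 CPM in WT chow replicates 2, 3 and 4 and at 13.9, 19.6 and 15.3 CPM in KO chow replicates 1, 2 and 3. On FFC it stood at 33.1, 30.1 and 38.9 CPM in WT replicates 2, 3 and 4 and at 37.6, 74.7 and 60.1 CPM in KO replicates 1, 4 and 7. Every FFC library lay above every chow library. Emr1 rose 2.80-fold in WT livers (log2 1.49, SE 0.23, edgeR adjusted p = 0.000446) and 3.53-fold in KO livers (log2 1.82, SE 0.23, edgeR adjusted p = 8.87e-05).

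The growth factor receptor gene Csf1r (ENSMUSG00000024621, chromosome 18, 61105572 to 61132149) stood at 31.0, 42.4 and 31.6 CPM in WT chow and at 92.4, 49.0 and 42.5 CPM in KO chow libraries, in the same order of replicates. With FFC the level was 76.6, 69.3 and 91.3 CPM in WT and at 84.5, 107 and 101 CPM in KO libraries. KO chow replicate 1 was as high as the FFC libraries, so the KO groups overlapped, whereas the WT groups did not. Csf1r rose 2.26-fold in WT livers (log2 1.18, SE 0.24, edgeR adjusted p = 0.00368). In KO livers the rise of 1.59-fold was just past the threshold (log2 0.67, SE 0.24, edgeR adjusted p = 0.0495). It was called under 5 of 16 alternative settings, with log2 changes from 0.42 to 1.12, and without KO chow replicate 1 it was 1.09 (edgeR adjusted p = 0.000736). Csf1r was not called without KO chow replicate 2 (0.50, edgeR adjusted p = 0.189), without KO chow replicate 3 (0.42, edgeR adjusted p = 0.204) or without any single KO FFC library (0.60 to 0.76, edgeR adjusted p from 0.0623 to 0.139).

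Exons of Csf1r overlap those of Hmgxb3, a gene on the opposite strand, over 873 bases, and whether counting used strand was not stated. The overlapping gene had a mean count of 274 against 1900 for Csf1r. Hmgxb3 was at 22.7 CPM in KO chow replicate 1 and at 6.65 to 11.4 CPM in the other 11 libraries, so both genes were at their highest chow level in the same library. The part of shared reads in the Csf1r level of that library was not tested. No other of the 10 genes overlapped the exons of an annotated gene.

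Mertk (ENSMUSG00000014361, chromosome 2, 128698956 to 128802894), the receptor for apoptotic cell uptake, stood at 19.8, 12.4 and 14.2 CPM in WT chow and at 7.54, 9.33 and 11.7 CPM in KO chow livers. The FFC levels were 27.8, 26.0 and 30.5 CPM in WT and at 28.3, 24.7 and 23.6 CPM in KO livers. FFC libraries lay above chow libraries in both genotypes, and the KO chow libraries were the lowest of all. Mertk rose 1.81-fold in WT (log2 0.86, SE 0.21, edgeR adjusted p = 0.00922) and 2.69-fold in KO livers (log2 1.43, SE 0.21, edgeR adjusted p = 0.000261).

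Fcgr1 (ENSMUSG00000015947, chromosome 3, 96282909 to 96293969), the IgG receptor gene, was low, at 42 to 117 counts in a chow library and 141 to 251 in an FFC library. Its level was 2.26, 4.38 and 2.91 CPM in WT chow and 5.73, 5.66 and 2.76 CPM in KO chow livers. On FFC it was 6.38, 6.48 and 7.37 CPM in WT and 7.43, 8.48 and 4.64 CPM in KO livers. The WT groups did not overlap. In KO livers FFC replicate 7 lay below chow replicates 1 and 2. Fcgr1 rose 2.12-fold in WT livers (log2 1.09, SE 0.33, edgeR adjusted p = 0.0343), and the KO log2 change of 0.53 did not pass the test (95% interval -0.16 to 1.22, edgeR adjusted p = 0.243). The WT call was lost without WT chow replicate 2 or 4 and without WT FFC replicate 2, 3 or 4, with edgeR adjusted p from 0.0786 to 0.122 and log2 changes from 0.88 to 1.13, and with offsets for GC content and length (0.79, edgeR adjusted p = 0.0826).

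Cd14 (ENSMUSG00000051439, chromosome 18, 36725074 to 36726736), the lipopolysaccharide co-receptor gene, had the fewest counts, 15 to 59 in a chow library and 148 to 205 in an FFC library. It stood at 0.912, 1.69 and 1.40 CPM in WT chow and at 2.01, 3.01 and 0.987 CPM in KO chow livers. Under FFC it was at 5.28, 4.08 and 5.08 CPM in WT and at 4.91, 6.92 and 5.80 CPM in KO livers. All 6 FFC libraries lay above all 6 chow libraries. Cd14 rose 3.61-fold in WT (95% interval 2.08 to 6.27, edgeR adjusted p = 0.00340) and 2.90-fold in KO livers (95% interval 1.70 to 4.97, edgeR adjusted p = 0.00609). These intervals were wide, and the part of the low counts in this was not tested.

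Tyrobp (ENSMUSG00000030579, chromosome 7, 30413788 to 30417577), the DAP12 adaptor gene, stood at 10.3, 15.0 and 15.0 CPM in WT chow and at 26.3, 21.5 and 14.5 CPM in KO chow livers. The FFC libraries held 30.0, 25.2 and 33.1 CPM in WT and at 43.2, 46.0 and 34.5 CPM in KO livers. Within each genotype the diets did not overlap, but KO chow replicate 1 lay above WT FFC replicate 3. Tyrobp rose 2.19-fold in WT (log2 1.13, SE 0.22, edgeR adjusted p = 0.00276) and 1.98-fold in KO livers (log2 0.99, SE 0.22, edgeR adjusted p = 0.00413).

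Aif1 (ENSMUSG00000024397, chromosome 17, 35170991 to 35176068), the IBA1 gene, was the only one of the 10 called in neither genotype. Its change in KO livers was near that of Csf1r (log2 0.67). It stood at 5.28, 11.8 and 4.66 CPM in WT chow and at 8.77, 14.9 and 7.57 CPM in KO chow livers. On FFC it stood at 9.58, 8.96 and 9.60 CPM in WT and at 12.7, 24.4 and 13.0 CPM in KO livers. Chow and FFC libraries overlapped in both genotypes, through WT chow replicate 3 and KO chow replicate 2. The log2 change was 0.38 in WT (95% interval -0.35 to 1.10, edgeR adjusted p = 0.499) and 0.68 in KO livers (95% interval -0.04 to 1.40, edgeR adjusted p = 0.153), and neither passed the test.

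Mpeg1 (ENSMUSG00000046805, chromosome 19, 12460779 to 12465284), the perforin-2 gene, stood at 51.4, 72.5 and 54.2 CPM in WT chow and at 32.3, 77.9 and 41.9 CPM in KO chow livers. FFC libraries stood at 178, 149 and 158 CPM in WT and at 172, 203 and 165 CPM in KO livers. The diets did not overlap. Mpeg1 rose 2.72-fold in WT (log2 1.45, SE 0.25, edgeR adjusted p = 0.00106) and 3.55-fold in KO livers (log2 1.83, SE 0.26, edgeR adjusted p = 0.000161).

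Cybb (ENSMUSG00000015340, chromosome X, 9435252 to 9487771), the oxidase subunit gene, stood at 9.69, 15.6 and 8.82 CPM in WT chow and at 7.49, 10.3 and 5.92 CPM in KO chow livers. On FFC it stood at 37.9, 34.0 and 37.2 CPM in WT and at 35.0, 43.5 and 30.1 CPM in KO livers. Every FFC library lay above every chow library. Cybb rose 3.20-fold in WT (log2 1.68, SE 0.24, edgeR adjusted p = 0.000231) and 4.55-fold in KO livers (log2 2.19, SE 0.25, edgeR adjusted p = 4.00e-05).

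Lyz2 (ENSMUSG00000069516, chromosome 10, 117277334 to 117282274), the lysozyme gene, stood at 58.2, 46.9 and 50.8 CPM in WT chow and at 44.8, 40.8 and 54.8 CPM in KO chow livers. Under FFC the level was 182, 163 and 186 CPM in WT and at 92.2, 159.9 and 123 CPM in KO livers. All FFC libraries lay above all chow libraries, and all 3 KO FFC libraries lay below the WT FFC libraries. Lyz2 rose 3.40-fold in WT (log2 1.77, SE 0.20, edgeR adjusted p = 2.38e-05) and 2.68-fold in KO livers (log2 1.42, SE 0.20, edgeR adjusted p = 0.000158). The neighbouring Lyz1 is close in sequence, with 91.95% identity between the longest coding transcripts, and 15.4% of the 50-base windows and 1.97% of the 100-base windows of the Lyz2 transcript also occur in that of Lyz1. Reads from such windows cannot be assigned, but the Lyz1 level was 1.46% to 4.28% of the Lyz2 level.

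**Figure D2:**
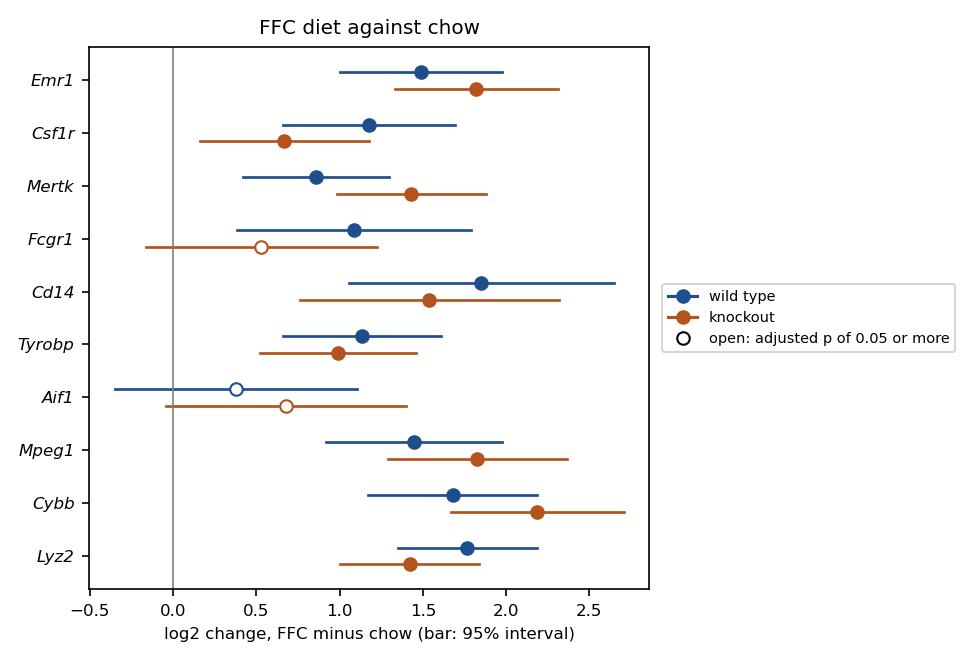
Log2 change from chow to FFC for each gene in WT and KO livers (x axis, log2 units), from the edgeR fit of all 12 libraries, with 95% intervals as bars. Filled points have an adjusted p under 0.05, and open points, which are Aif1 in both genotypes and Fcgr1 in KO livers, do not. All 20 estimates lie above 0.

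Scaling bears on these changes, since normalization factors were 0.759 to 0.961 in chow and 1.09 to 1.25 in FFC libraries. Without any scaling, the 10 genes together took 0.0182% to 0.0199% of all counts in WT chow and 0.0159% to 0.0205% in KO chow libraries. They took 0.0628% to 0.0735% in WT FFC and 0.0606% to 0.0759% in KO FFC libraries. The diets did not overlap in this share either, and the ranges of the genotypes overlapped on each diet.

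Levels per kilobase of gene model, which allow the genes to be compared with each other, put Lyz2 first and Tyrobp next in all 4 groups. In WT chow livers the means were 41.0 CPM per kilobase for Lyz2, 23.8 for Tyrobp, 13.7 for Mpeg1 and 7.16 for Csf1r, and these did not overlap. Csf1r overlapped Aif1 in turn. Aif1 (4.72), Emr1 (3.74) and Mertk (3.57 CPM per kilobase) overlapped as neighbours, as did Cybb (1.96), Fcgr1 (1.23) and Cd14 (0.849 CPM per kilobase). In WT FFC livers the means were 139.8 CPM per kilobase for Lyz2, 52.2 for Tyrobp, 37.3 for Mpeg1, 16.2 for Csf1r and 10.5 for Emr1, again without overlap between neighbours. Aif1, at 6.12 CPM per kilobase, came eighth there, after Mertk (6.48) and Cybb (6.26), whose ranges overlapped in that order. In KO livers Lyz2 and Tyrobp overlapped on both diets, at 37.0 and 36.8 CPM per kilobase on chow and at 98.9 and 73.1 on FFC. The 2 least abundant genes were Cd14 and Fcgr1 in WT and KO FFC livers, at 2.60 to 3.74 CPM per kilobase.

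Between the genotypes on FFC, which is the comparison of myeloid S1pr1 deletion under the fatty liver diet, none of the 10 genes passed the edgeR test, and none was called by DESeq2 or limma-voom or under the other alternatives. Over all genes 3 were called, or 0.0184%. All 10 adjusted p-values from edgeR were 1.00, while 4 of the 10 genes had an unadjusted p under 0.05, beside 3.63% of all genes. Those were Emr1, Aif1, Tyrobp and Lyz2. The median log2 difference of the 10 genes, KO minus WT, was 0.22, beside -0.01 over all genes, and 7 were above 0. Levels did not overlap for Aif1 and Tyrobp, which were higher in KO, where 10.9% of all genes were higher without overlap. They also did not overlap for Lyz2, which was lower in KO, where 10.5% of all genes were lower without overlap.

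Emr1 averaged 34.0 ± 4.47 CPM (SD, n = 3) in WT FFC and 57.5 ± 18.7 CPM (SD, n = 3) in KO FFC livers. KO replicates 4 and 7 were above all WT libraries, and KO replicate 1 lay within the WT range. The difference was 1.69-fold (95% interval 1.22 to 2.34, edgeR adjusted p = 1.00). Its log2 value of 0.76 moved to 0.52 without KO FFC replicate 4 and to 0.99 without KO FFC replicate 1.

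Aif1 averaged 9.38 ± 0.364 CPM (SD, n = 3) in WT FFC and 16.7 ± 6.66 CPM (SD, n = 3) in KO FFC livers, a 1.78-fold difference (95% interval 1.08 to 2.92, edgeR adjusted p = 1.00). KO replicate 4 was the highest, and the log2 difference of 0.83 was 0.45 without it. Tyrobp averaged 29.4 ± 3.99 CPM (SD, n = 3) in WT FFC and 41.2 ± 5.96 CPM (SD, n = 3) in KO FFC livers, a 1.40-fold difference (95% interval 1.02 to 1.93, edgeR adjusted p = 1.00).

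Lyz2 averaged 177 ± 12.6 CPM (SD, n = 3) in WT FFC and 125 ± 33.9 CPM (SD, n = 3) in KO FFC livers, and its KO level was 0.708 of the WT level (95% interval 0.534 to 0.938, edgeR adjusted p = 1.00). In the commonly used Lyz2-Cre line, Cre is inserted in Lyz2 itself and interrupts that allele. An effect of that allele on the Lyz2 count and an effect of S1pr1 deletion cannot be told apart here. On chow the log2 difference of Lyz2 was -0.15 (95% interval -0.56 to 0.26, edgeR adjusted p = 0.659).

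For Csf1r, Cd14, Fcgr1, Mertk, Mpeg1 and Cybb the log2 differences on FFC were 0.30, 0.29, 0.02, -0.14, 0.15 and -0.01, each with an interval that held 0. The interval was widest for Cd14, from 0.74-fold to 2.03-fold, so differences within that range were not resolved. For Mertk it ran from 0.68-fold to 1.22-fold.

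**Figure D3:**
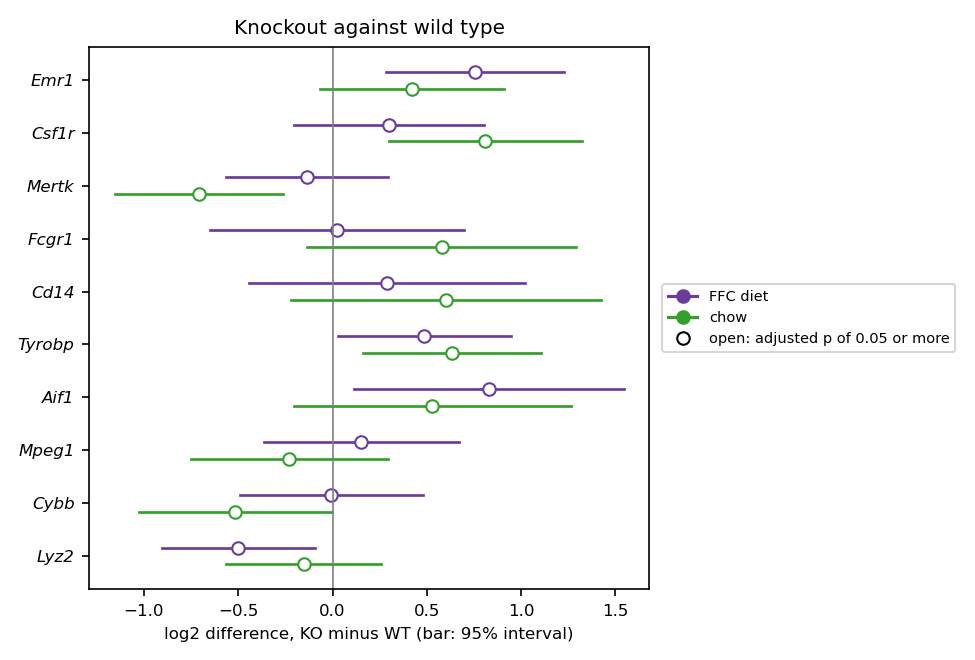
Log2 difference between KO and WT livers for each gene (x axis, KO minus WT, log2 units) on FFC and on chow, from the same edgeR fit, with 95% intervals as bars. All points are open, since none had an adjusted p under 0.05. Emr1, Aif1 and Tyrobp lie above 0 and Lyz2 below 0 on FFC, with intervals that leave out 0 before adjustment, and Csf1r and Mertk lie on opposite sides of 0 on chow.

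Ratios between genes of the same library do not depend on library scaling, apart from the prior count of 2 in the log2 levels. That prior count weighs most on genes with few counts, such as Cd14 and Fcgr1. Among the 45 pairs of the 10 genes, the log2 ratio did not overlap between KO and WT FFC libraries for 21. The share was 23.2% over 50838486 pairs of genes whose mean log2 CPM was 2 or more. Cd14 itself lay below that level, so its pairs are not matched in level by that share. Lyz2 was in 7 of the 21, Aif1 in 6, Emr1, Tyrobp and Cybb in 5 each, Cd14 in 4, Mertk and Mpeg1 in 3 each, and Csf1r and Fcgr1 in 2 each. On chow 14 of the 45 pairs did not overlap, beside 23.9% of all pairs, with Cybb in 6, Mertk and Mpeg1 in 4 each, Emr1 and Csf1r in 3 each, Fcgr1, Tyrobp and Aif1 in 2 each, and Cd14 and Lyz2 in 1 each. Pairs share genes and are not independent, so these counts are a description.

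The ratio of Lyz2 to Emr1, chosen after the values were seen and given with no test, was 5.51, 5.41 and 4.78 in WT FFC replicates 2, 3 and 4. It was 2.45, 2.14 and 2.05 in KO FFC replicates 1, 4 and 7. The means were 5.23 ± 0.395 (SD, n = 3) and 2.22 ± 0.209 (SD, n = 3), without overlap. On chow the ratio was 5.20, 3.30 and 4.63 in WT and 3.23, 2.08 and 3.57 in KO libraries, and there the genotypes overlapped. The Cre allele enters this ratio through Lyz2.

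**Figure D4:**
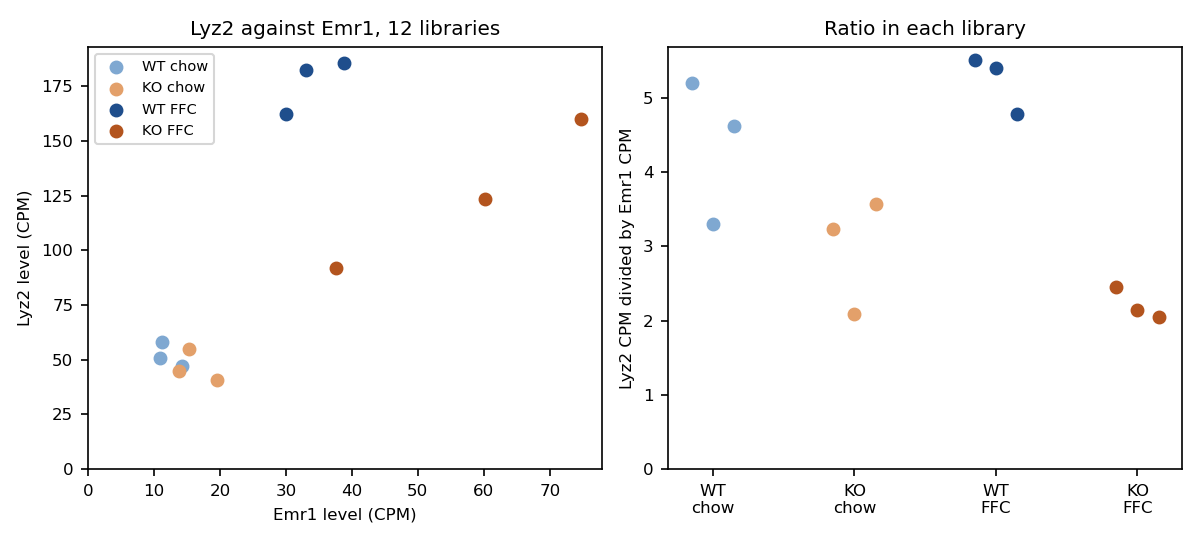
Left, Lyz2 level against Emr1 level in the 12 libraries (both axes in CPM). Right, the ratio of the Lyz2 to the Emr1 level in each library by group. The 3 KO FFC libraries lie between 2.05 and 2.45 and the 3 WT FFC libraries between 4.78 and 5.51.

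On chow, none of the 10 genes passed the edgeR test between the genotypes, although 1185 of all genes did, or 7.28%. Of the 10, 4 had an unadjusted p under 0.05 (26.7% of all genes), DESeq2 called 2 and limma-voom called 0. The median log2 difference was 0.48 for the 10 genes and -0.02 over all genes, with 6 above and 4 below 0. Mertk and Csf1r came closest to the threshold. They were also the genes whose levels did not overlap: Csf1r was higher in KO, as 9.62% of all genes were, and Mertk was lower, as 11.0% of all genes were. For Csf1r the highest WT chow library (42.41 CPM) and the lowest KO chow library (42.46 CPM) were nearly equal.

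Mertk averaged 15.5 ± 3.87 CPM (SD, n = 3) in WT chow and 9.51 ± 2.06 CPM (SD, n = 3) in KO chow livers, so its KO level was 0.612 of the WT level (95% interval 0.449 to 0.834, edgeR adjusted p = 0.0509). It was called under 7 of 16 alternatives, with log2 differences from -0.91 to -0.40. Csf1r averaged 35.0 ± 6.44 CPM (SD, n = 3) in WT chow and 61.3 ± 27.1 CPM (SD, n = 3) in KO chow livers, a 1.75-fold difference (95% interval 1.23 to 2.50, edgeR adjusted p = 0.0513). Csf1r was called under 6 of 16 alternatives, with log2 differences from 0.39 to 1.05. Without KO chow replicate 1, where Hmgxb3 was also high, its log2 difference of 0.81 became 0.39 (edgeR adjusted p = 0.211). Tyrobp was 1.55-fold higher (edgeR adjusted p = 0.0880) and Cybb was at 0.699 of the WT level (edgeR adjusted p = 0.185), and neither passed the test. When the 2 chow groups were fitted alone, edgeR called 0 of all genes between the genotypes.

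The diet effect itself was compared between the genotypes by an interaction term. None of the 10 genes passed (edgeR, smallest adjusted p = 0.351 for Mertk), none had an unadjusted p under 0.05, and none was called by DESeq2 or limma-voom. Over all genes 8 were called, or 0.0491%. The differences of log2 change, KO minus WT, ran from -0.56 for Fcgr1 to 0.57 for Mertk, 5 above and 5 below 0. For Mertk the 95% interval was -0.05 to 1.19, and for Fcgr1, called in WT alone, it was -1.54 to 0.43, so the 2 genotypes were not shown to differ in either gene.

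Within groups the genes tended to be high or low in the same libraries. KO FFC replicate 4 was the highest of its group in 9 of the 10 genes, all but Mertk, and WT FFC replicate 3 was the lowest of its group in 9, all but Fcgr1. WT chow replicate 3 was the highest of its group in 7 genes. Correlations with the mean standardized level of the other 9 genes over the 12 libraries, given as a description, were from 0.65 for Aif1 to 0.97 for Cd14. The libraries share diet groups, scaling and depth, and after group means were subtracted the order changed. Aif1 (0.88) and Cybb (0.87) then followed the others most closely, Lyz2 did not follow them (-0.07) and Mertk ran opposite (-0.55).

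**Figure D5:**
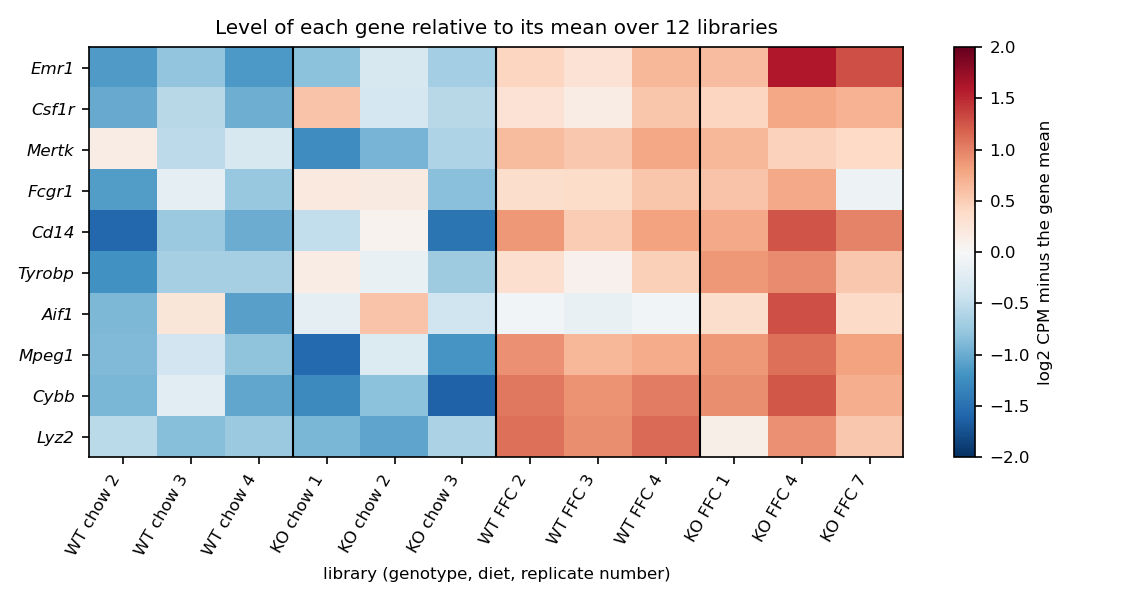
Log2 CPM of each of the 10 genes (rows) in each of the 12 libraries (columns, named by genotype, diet and replicate), minus the mean of that gene over all libraries. Red is above and blue below the gene mean, and colour saturates at 2 log2 units. FFC columns are mostly red and chow columns mostly blue, and the reddest chow cells are Csf1r in KO chow replicate 1 and Aif1 in KO chow replicate 2.

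Among 10075 other genes at the same minimum level, those most like the mean of the 10 genes over the 12 libraries were Ctss (Pearson r 0.97), Nckap1l (0.97), Cd300ld (0.96), Lcp2 (0.96) and Itgb2 (0.96), and 71 genes had an r over 0.9. After group means were subtracted they were Treml4 (0.95), Phpt1 (0.95), Gng11 (0.915), Clec4n (0.912) and Ptprc (0.91).

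Many partner genes of the same pathways rose with the FFC diet as well, read against the 8.76% and 13.7% of all genes called higher in WT and KO livers. Some genes stand in several lists, such as Fcer1g among pan-myeloid, ITAM and Fc receptor genes, so the list counts are not independent. Counts of the 2 genotypes stand side by side, and the differences between the counts were not tested. Single genes were tested by the interaction term, which edgeR called for 8 of all 16283 genes. Its unadjusted edgeR p was under 0.05 for 16.1% of all genes. Of each list at most 3 genes had such a p, the most among CSF1 receptor ligands, receptors and regulators (3 of 9). A call in 1 genotype alone does not show that the genotypes differ. Of 16 other pan-myeloid genes, 12 rose in WT and 8 in KO livers, and none fell, with median log2 changes of 1.07 and 0.76. Ctss, the lysosomal protease cathepsin S, rose by 1.71 in WT (edgeR adjusted p = 6.03e-05) and by 1.45 in KO livers (edgeR adjusted p = 0.000202). Ptprc, the leukocyte phosphatase CD45, rose by 1.56 and 2.03 (edgeR adjusted p = 0.000440 and 7.00e-05). Laptm5, a lysosomal membrane protein gene, rose by 1.40 in WT (edgeR adjusted p = 0.00185), while its change in KO livers was 0.39 (edgeR adjusted p = 0.276). Between genotypes none was called on FFC by edgeR, where 4 had an unadjusted p under 0.05. On chow C1qb (1.12), C1qa (0.92) and Laptm5 (0.96) were called higher in KO (edgeR adjusted p = 0.0169, 0.0330 and 0.0372), a count of 3 that became 1 without KO chow replicate 1 and 0 with the chow groups fitted alone. C1qa and C1qb encode chains of complement C1q.

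Of 9 genes for CSF1 receptor ligands, colony-stimulating factor receptors and myeloid regulators, 8 rose in WT (median 1.46) and 4 rose and 1 fell in KO livers (median 0.48). Csf1, the ligand of the Csf1r product, rose by 1.45 in WT (SE 0.26, edgeR adjusted p = 0.00138), and its change in KO livers was 0.48 (SE 0.26, edgeR adjusted p = 0.171). Csf2rb, the common beta chain of the GM-CSF receptor family, rose by 1.94 and 1.54 (edgeR adjusted p = 8.93e-05 and 0.000393). Cebpb, a myeloid and hepatocyte transcription factor gene, fell by 1.49 in KO livers (edgeR adjusted p = 0.00157) and was at -0.11 in WT (edgeR adjusted p = 0.839).

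Partners of Cybb in the phagocyte NADPH oxidase also rose with the diet. Ncf4 rose by 1.89 and 1.78, Ncf1 by 1.57 and 1.06 and Rac2 by 1.59 and 1.09 in WT and KO, with edgeR adjusted p from 0.00298 to 0.0199. Cyba, the membrane partner of the Cybb product, rose by 1.10 in WT (edgeR adjusted p = 0.0172) and was at 0.28 in KO livers (edgeR adjusted p = 0.490). On chow Rac2 (1.25, edgeR adjusted p = 0.0317) and Cyba (1.08, edgeR adjusted p = 0.0380) were called higher in KO, and neither was called without KO chow replicate 1, or with the chow groups fitted alone.

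Of 8 tested ITAM signalling partners of the Tyrobp product, 5 rose in each genotype (medians 1.64 and 1.49). Syk, the kinase recruited by ITAMs, rose by 1.95 and 2.12 (edgeR adjusted p = 0.000444 and 0.000218). Trem2, a lipid-sensing receptor that pairs with DAP12, rose by 3.41 in WT and 2.07 in KO livers (SE 0.57 and 0.54, edgeR adjusted p = 0.000809 and 0.0101). Of 4 genes for other Fc gamma receptors and a signalling chain of such receptors, 3 rose in WT and 2 in KO livers. Fcgr4 rose by 1.32 and 0.99 (edgeR adjusted p = 0.00370 and 0.0129), and Fcgr2b, the inhibitory receptor, was at 0.32 and 0.30 (edgeR adjusted p = 0.172 and 0.152). Fcer1g, the signalling chain of the activating receptors, rose by 0.90 and 1.26 (edgeR adjusted p = 0.0463 and 0.00550). Fcgr3 rose by 1.32 in WT (edgeR adjusted p = 0.00102), with 0.56 in KO livers (edgeR adjusted p = 0.0770).

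Among 3 tested genes of the other TAM receptors and their ligands, Axl, a sister receptor of Mertk, rose by 1.42 in WT and 0.95 in KO livers (edgeR adjusted p = 0.000752 and 0.00692). Gas6, a ligand of both receptors, rose by 1.76 in WT (edgeR adjusted p = 0.000355) and was at 0.21 in KO livers (edgeR adjusted p = 0.581). Pros1, the gene of the ligand protein S, was at -0.25 and 0.01 (edgeR adjusted p = 0.468 and 0.984). Between genotypes on chow edgeR called 0 of the 3, 1 of them with an unadjusted p under 0.05, and 1 of 4 tested without KO chow replicate 1. For the partners of Cd14 in the CD14 and TLR4 complex, edgeR called none of 7 genes in WT livers, 1 of them with an unadjusted p under 0.05, with Tlr4 itself at 1.05 (SE 0.48). In KO livers Ticam2, an adaptor gene of TLR4, rose by 3.03 (SE 1.06, edgeR adjusted p = 0.0425). It was not called without KO chow replicate 1 or with the KO groups fitted alone. Its levels were near 0, with means of 0.458, 0.0878, 0.652 and 0.667 CPM in WT chow, KO chow, WT FFC and KO FFC livers. Lbp, which delivers lipopolysaccharide to CD14, fell by 1.22 in KO livers (SE 0.22, edgeR adjusted p = 0.00106). Its means were 71.3, 147, 79.5 and 63.2 CPM in the same order of groups, so KO chow was the highest. Of 3 tested paralogs, Lyz1 rose by 2.13 in WT (SE 0.43, edgeR adjusted p = 0.00321) and was at 0.82 in KO livers (edgeR adjusted p = 0.164). On FFC Lyz1 was lower in KO than in WT livers without overlap (-1.03, SE 0.40, edgeR unadjusted p = 0.0208), and was not called. Of the 50-base windows of the Lyz1 transcript, 16.1% also occur in that of Lyz2. The part of Lyz2 reads in the Lyz1 counts was not tested. Cd97 (now Adgre5) rose by 1.21 and 0.82 (edgeR adjusted p = 0.00122 and 0.00942), and Emr4 (now Adgre4) rose by 1.15 in KO livers (edgeR adjusted p = 0.0114), with 0.80 in WT (edgeR adjusted p = 0.0845).

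Markers of liver and blood cell types moved with some of these comparisons. Of 7 Kupffer cell markers, 3 rose and 1 fell in WT livers and 6 rose in KO livers. Their summed level ranged from 215.8 to 289.8 CPM in WT chow, 259.5 to 378.3 in KO chow, 367 to 445 in WT FFC and 509.8 to 648 CPM in KO FFC libraries. On FFC, Marco (2.68, SE 0.32, edgeR adjusted p = 0.00218) and Timd4 (1.72, SE 0.25, edgeR adjusted p = 0.0177), a scavenger receptor and a phosphatidylserine receptor of Kupffer cells, were higher in KO than in WT livers. A fit of the 2 FFC groups alone called 1 of the 7 markers. Their part in the difference of Emr1 on FFC was not tested.

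Of 5 monocyte markers, 1 rose in WT and 2 in KO livers, with sums of 7.58 to 13.6, 9.89 to 18.3, 16.3 to 27.8 and 13.5 to 24.4 CPM in WT chow, KO chow, WT FFC and KO FFC libraries. Ccr2, the chemokine receptor of inflammatory monocytes, rose by 1.96 and 2.46 (SE 0.51 and 0.54, edgeR adjusted p = 0.0135 and 0.00374). F13a1, at 0 in all KO chow libraries, was called in KO livers (6.89, SE 1.77, edgeR adjusted p = 0.0104). It was not called in WT livers (3.33, SE 1.13, edgeR adjusted p = 0.0558). Plac8 (0.66 in WT and 0.03 in KO livers), Chil3 (3.90 and 0.91) and Ly6c2 (0.84 and -0.53) were called in neither genotype. Neutrophils also carry Lyz2, Cybb and Tyrobp transcripts. Their markers summed to 2.16 to 3.53 CPM in WT chow, 2.83 to 16.1 in KO chow, 4.55 to 5.45 in WT FFC and 3.33 to 7.30 CPM in KO FFC libraries. Of the 9, 3 had enough counts to be tested and none was called with diet by edgeR or had an unadjusted p under 0.05 there, and Ly6g and Ltf were at 0 in all 6 chow libraries. S100a9 was called higher in KO chow livers (1.64, SE 0.48, edgeR adjusted p = 0.0462), and not with the chow groups fitted alone.

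Of 5 dendritic cell markers, 3 rose in each genotype, and the count in KO livers was 1 without KO chow replicate 1 and 1 of 4 tested with the KO groups fitted alone. Their sum ranged from 3.51 to 7.65 CPM over the chow and from 10.2 to 24.7 CPM over the FFC libraries. B cell markers (1 of 4 called, in KO livers, and 2 without KO chow replicate 1) and T and NK cell markers (0 of 5 called by edgeR in either genotype, 0 with an unadjusted p under 0.05) summed to 0.658 to 5.37 and 0.897 to 4.23 CPM over the 12 libraries. Non-immune cells of the sinusoid also moved, with 5 of 6 endothelial markers higher in WT and 4 in KO livers and 5 of 6 stellate cell markers higher in WT and 1 in KO livers. On chow 1 stellate cell marker was called higher in KO, and none was without KO chow replicate 1. The endothelial sums ranged from 164.6 to 184.9 CPM on chow and 198 to 279.6 CPM on FFC, and the stellate sums from 140.4 to 250.5 and 250.5 to 352 CPM. Hepatocyte markers went the other way, with 5 of 7 lower in WT and all 7 lower in KO livers, and sums of 126185 to 205563 CPM on chow and 65415 to 102195 CPM on FFC. Of 3 erythroid markers 1 fell in KO livers, a count of 0 without KO chow replicate 1, and 1 fell in WT livers with the WT groups fitted alone. The exocrine pancreas list had 1 tested gene, which fell in both genotypes, and the adipose list had none, with Plin1 and Lep at 0 in all libraries. The part of these markers in the diet changes of the 10 genes was not tested.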

How the data were processed

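As the design text of the series states, reads were aligned by the authors, paired-end, to mm10 with TopHat 2.1.0 and counted them per Ensembl gene with featureCounts 1.4.6. The deposited values are raw read counts, checked to be whole numbers. The Ensembl release, strandedness, batches and dates are not given in the sources used here. Libraries were checked to be distinct. From the counts, genes were filtered with filterByExpr by group and scaled with trimmed-mean (TMM) factors, and a robust quasi-likelihood model of 4 groups was fitted to all 12 libraries (edgeR 4.0.16, limma 3.58.1, R 4.3.3) with two-sided tests adjusted over all 16283 genes. The pipeline was tested on simulated data. Log2 CPM used a prior count of 2. Intervals are 95% intervals of the fit. Precision rests on the total counts of 18873092 to 31154930 and on the spread between libraries.

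The 10 genes and the 20 lists of other genes (117 distinct) were chosen with earlier results of these data known. Named genes are the 10, all genes of lists of at most 5, up to 4 with the lowest p of longer lists, and the 5 most like the 10 by each correlation. The counts of the NADPH oxidase list are not reported here. Hmgxb3, Ly6g, Ltf, F13a1, Plin1 and Lep were named after their values were seen. Alternatives were median-ratio size factors, no filter, the authors' filter (protein-coding, a minimum RPKM of 1 in some library), DESeq2 1.42.0, limma-voom, a replicate block, the compared groups alone, thinned counts and each library left out. Total counts without scaling, offsets for GC content and length, and list counts without KO chow replicate 1 or in the compared groups alone were added after seeing the data. Promoters are from RefSeq GRCm38.p6, and transcript comparisons used Biopython 1.88.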

Additional observations from a re-analysis of the deposited data

How the results depend on the processing

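All 320 diet changes of the 10 genes under the alternatives stayed above 0. The number called was 8 to 9 in WT and 7 to 10 in KO livers, 0 between genotypes on FFC and for the diet difference, and between genotypes on chow 1 with median-ratio size factors, 2 without a filter, 2 with the authors' filter, 2 with DESeq2, 1 with thinned counts and 1 with total counts, and 0 to 3 without 1 library (1 without WT chow replicate 3, 2 without KO chow replicate 2, 3 without KO chow replicate 3). Of 850 gene values, 789 kept direction and side of the threshold, 17 lost a call, 18 gained it and 26 changed sign, none of them from a called value. On FFC between genotypes, Cybb was 0.0022 with size factors and with DESeq2, 0.26 with the replicate block, 0.0071 thinned, 0.016 with GC and length offsets and -0.16 to 0.11 without 1 library; Fcgr1 was -0.019 with limma-voom, -0.10 with total counts and -0.16 to 0.24 without 1 library. With the block Csf1r was -0.036 and Mertk 0.040 on FFC, and Lyz2 0.011 on chow. With the offsets Lyz2 was 0.043 and Mpeg1 0.093 on chow and the Tyrobp diet difference 0.18. Without one library Mpeg1 on chow was -0.66 to 0.013, and the diet differences of Aif1, Tyrobp and Cd14 were -0.26 to 0.63, -0.38 to 0.060 and -0.65 to 0.071. The cause was not tested. Replicate numbers did not pair the libraries (r of same-numbered deviations -0.12 to 0.090 over 10 pairs, and 2 of 12 libraries correlated best with their own number). The block gave 9 and 7 of the 10 genes called in WT and KO livers. Over all genes the counts of calls moved by more than 1.5 times with the compared groups alone (KO diet 2355 against 4312, FFC 17 against 3, chow 0 against 1185), no filter (FFC 114, chow 1917, diet difference 600 against 8), DESeq2 (FFC 18, chow 2247, difference 419), limma-voom (difference 0), the block (FFC 14, chow 183, difference 396) total counts (WT diet 4389, KO diet 6609, difference 0), thinned counts (difference 0) and the offsets (chow 751, difference 0). Total counts moved the median log2 change of all genes to 0.47 in WT and 0.57 in KO livers, and the offsets moved it to -0.19 and -0.20. Leaving out 1 library gave 1305 to 2465 calls for WT diet, 2751 to 4978 for KO diet, 1 to 5 on FFC, 34 to 2534 on chow and 0 to 580 for the difference. With the compared groups alone, 5 of 16 pan-myeloid, 2 of 9 CSF, 3 of 7 tested ITAM, 3 of 7 Kupffer cell, 2 of 6 endothelial, 1 of 4 tested monocyte and 1 of 3 paralog genes rose in KO livers, and without KO chow replicate 1 the pan-myeloid count was 10. Cd14 and Fcgr1 had the fewest counts on chow, and the part of depth in their intervals was not tested.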
